A study of Drosophila melanogaster with 16 samples.

Results

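The genes described here encode the proteins of the mitochondrial ribosome in Drosophila melanogaster embryos. They were taken as the protein-coding genes whose FlyBase symbol begins with mRpL or mRpS followed by a number. The rule was met by 72 of the 17753 genes counted, 47 with a large-subunit symbol (mRpL) and 25 with a small-subunit symbol (mRpS). A filter on low counts kept 71 of them among 12398 genes tested. The gene it removed, mRpL53 on 2R (FBgn0050481), had a count of 0 in all 16 libraries in the table, and all of its exon bases lie within those of CG33155 on the same strand.

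The mitochondrial ribosome translates the few proteins that the mitochondrial genome encodes, which are core subunits of the respiratory chain and the ATP synthase. Its RNAs come from the mitochondrial genome, but its proteins are encoded in the nucleus, made in the cytosol and imported. Some descend from bacterial ribosomal proteins and others arose only in mitochondria. The early fly embryo inherits its mitochondria, and much of its mRNA, from the egg.

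Each library was made from total RNA of a pool of 50 hand-sorted embryos, from 1 h of egg laying and 2 h of ageing at 25 °C, collected at nuclear cycle 14 (NC14, stage 5, when the syncytial embryo forms cells) or at stages 7 to 8 (St7-8, gastrulation), per the labels. All groups carried wm4h, an inversion that places the eye colour gene white beside heterochromatin and is used to score position effect variegation. The control was wm4h;+/+. The mutants were wm4h;JasperSu113/JasperSu113 and wm4h;JasperSu140/JasperSu140, called Su113 and Su140 below, and a wm4h line homozygous for the allele Su(var)3-906, called the Su(var)3-9 mutant. The series title describes Jasper mutants of the PWWP domain, a chromatin-binding module of a transcriptional cofactor, and Su(var)3-9 encodes a histone H3 lysine 9 methyltransferase. Each of the 8 groups of genotype and stage had 2 libraries. The labels do not say whether the 2 pools came from separate parents, so p-values measure only the spread between pools, which may be technical. In such pools, fewer cells of a type and less RNA per cell cannot be told apart.

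Total counts ranged from 43466130 to 92790237 per library. Transcripts of the mutated genes were detected in every mutant library, with Jasper at 98.9 to 161 counts per 1000000 counted reads (CPM) in Su113 and Su140 and Su(var)3-9 at 114 to 167 CPM in its mutant, so neither level checks the genotype labels. Markers did not follow the stage labels evenly. The summed level of a list of 5 genes of the cellularizing blastoderm, of which Sry-alpha was at 0 in all libraries, was 3988 and 4762 CPM in wm4h at NC14. In wm4h labelled St7-8 it was 1655 CPM in replicate 1 and 5228 CPM in replicate 2, so replicate 2 lay above both NC14 libraries. In the Su(var)3-9 mutant at St7-8 it was 68.5 and 69.4 CPM. The summed level of 8 older-embryo genes, mainly of muscle and nerve, was highest in replicate 2 of Su140 and of Su113 at St7-8, at 1298 and 1157 CPM against 69.9 to 422 CPM in the other libraries. By mean log2 CPM of this list (0.05 CPM added), where no single gene dominates, these 2 libraries stood at 6.22 and 5.78. Su113 replicate 1 at St7-8 was also high by that measure, at 4.50. Replicate 1 of the Su(var)3-9 mutant and of wm4h at St7-8 stood at 2.26 and 2.04, and the others at -1.34 to 0.44. Sums over 6 ovary and adult genes (0.337 to 1.39 CPM) and over 4 testis genes (0.511 to 2.84 CPM) were low throughout.

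Mitochondrial ribosomal protein genes were expressed at moderate levels in every library. Their mean over the 16 libraries had a median of 18.1 CPM over the 72 members, with a middle 50% of 12.0 to 27.9 CPM, against a median of 8.48 CPM over all genes tested. Per kilobase (kb) of exon, which allows genes to be compared, the highest were the small-subunit genes mRpS10 (82.0 CPM per kb), mRpS7 (72.9) and mRpS9 (66.8), all homologues of bacterial proteins. The lowest tested were the large-subunit genes mRpL38 (6.04 CPM per kb), mRpL43 (6.07) and mRpL21 (6.29). The medians of the large and small subunits, 24.1 and 26.2 CPM per kb, lay close together. In mRpS9 25.1% of exon bases overlap ArgRS-m on the opposite strand, and the strand setting of the counting is not given in the sources used here.

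**Figure D1:**
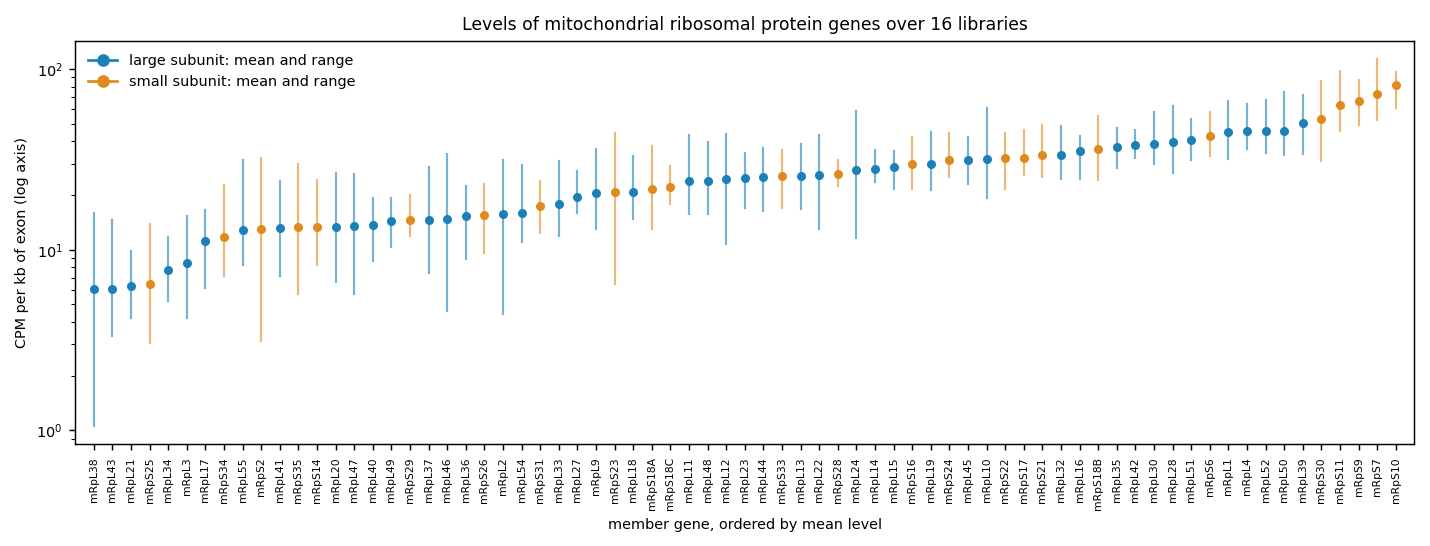
Mean level (points) and range over 16 libraries (lines) of 71 mitochondrial ribosomal protein genes in CPM per kb of exon, on a log axis and ordered by mean, with large-subunit genes in blue and small-subunit genes in orange. Means run from 6.04 for mRpL38 to 82.0 for mRpS10, and mRpL38 has the widest range.

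The members differed in how much they varied. The mean CPM of the 8 groups spanned 3.73 log2 units for mRpL38 and 0.39 for mRpL42, the widest and the narrowest span of the 71. In mRpL42 the libraries ran from 19.2 CPM (Su113, St7-8, replicate 2) to 27.1 CPM (wm4h, NC14, replicate 1). Agreement between replicate pools also differed among the groups. At NC14 12 members differed by more than 1.5-fold between the wm4h replicates, against 0 in Su113, 1 in Su140 and 4 in the Su(var)3-9 mutant. The widest gap was mRpL55, at 14.3 CPM in wm4h replicate 1 and 4.69 CPM in replicate 2. At St7-8 the wm4h replicates again differed by more than 1.5-fold in 12 members, against 3 in Su113 and 0 in each of Su140 and the Su(var)3-9 mutant.

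In Su140 embryos at NC14, mRNAs for mitochondrial ribosomal proteins took a larger share of the counts than in the control. Their share was 0.2106% and 0.1957% in Su140 against 0.142% and 0.1369% in wm4h. The highest share in any other library was 0.1937% (histone methyltransferase mutant, later stage), close to the lower Su140 value. After TMM scaling, the summed level of all members was 2211 and 2137 CPM in Su140 and 1619 and 1529 CPM in wm4h. It was 1427 to 1797 CPM in all libraries other than that Su140 pair, a clearer gap than by share. By edgeR's quasi-likelihood test with Benjamini-Hochberg adjustment over all genes, 22 of 71 members were higher and 4 lower in Su140. Over all genes 9.56% passed this threshold of 0.05, 3.02% higher and 6.53% lower, so members were called higher more often than all genes while lower calls stood near the background (5.63% of members). The median log2 fold change was 0.40 over members and -0.03 over all genes. In 47 members both Su140 libraries lay above both wm4h libraries, as they did in 28.0% of all genes, and in 12 they lay below, as in 30.2%.

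The called members came from both subunits and both evolutionary classes. By symbol alone, of 46 mRpL genes 18 were higher and 4 lower, and of 25 mRpS genes 4 were higher and 0 lower, with medians of 0.39 and 0.40. Of the 45 homologues of bacterial proteins 14 were higher and 2 lower, and of 26 members specific to mitochondria 8 were higher and 2 lower. By chromosome arm, 6 of 12 members on 2L, 6 of 16 on 3L, 7 of 21 on 3R and 3 of 11 on X were higher, while 3 on 3L and 1 on X were lower. On 2R 0 of 11 passed, with a median log2 fold change of 0.21 there. The homozygous mutations lie on 3R. Shares of all genes called on each arm were not computed, so whether this split is particular to the members was not tested.

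Among members that rose in Su140 at NC14, mRpL48, a large-subunit protein, was 13.0 and 12.4 CPM in wm4h and 28.7 and 31.4 CPM in Su140 (log2 fold change 1.24 ± 0.16 (SE), adjusted p = 0.00135). mRpS18B, one of 3 fly homologues of bacterial S18, went from 20.9 and 21.4 CPM to 46.7 and 47.8 CPM (1.16 ± 0.18, adjusted p = 0.00472). mRpL13, homologous to a bacterial protein of early large-subunit assembly, went from 12.3 and 11.3 CPM to 25.7 and 25.4 CPM (1.11 ± 0.20, adjusted p = 0.0095). In all 3 genes the Su140 libraries lay far above the control pair and close to each other. mRpL13 shares 35.2% of its exon bases with CG10602 on the same strand, whose own change was 0.12 (adjusted p = 0.74). In mRpL48 20.8% of exon bases overlap frtz on the opposite strand, which had a change of -0.38 (adjusted p = 0.206). The other members that rose had log2 fold changes of 0.60 (mRpL4) to 1.4 (mRpL20). Among them were mRpS30, the most abundant member by CPM, at 87.1 and 106 CPM in wm4h and 178 and 174 CPM in Su140 (0.87 ± 0.22, adjusted p = 0.0292), and mRpL28, the member nearest to the threshold (0.64 ± 0.18, adjusted p = 0.0454). In the mammalian mitochondrial ribosome, the proteins corresponding to mRpS30 and mRpS18A sit in the large subunit despite their names.

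The 4 members that fell did so by more than most others rose. mRpL2, homologous to a bacterial protein beside the peptidyl transferase centre, is described below. mRpL12, homologous to the bacterial stalk protein that recruits translation factors, was 24.0 and 18.4 CPM in wm4h and 8.73 and 7.94 CPM in Su140 (-1.35 ± 0.27, adjusted p = 0.0131). mRpL46, specific to mitochondria, went from 12.0 and 10.6 CPM to 5.22 and 4.14 CPM (-1.27 ± 0.29, adjusted p = 0.0202). mRpL38, also specific to mitochondria, went from 3.86 and 5.39 CPM to 1.58 and 1.48 CPM (-1.60 ± 0.36, adjusted p = 0.0202). The groups did not overlap in any of these genes, so these members moved against the direction of most others.

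**Figure D2:**
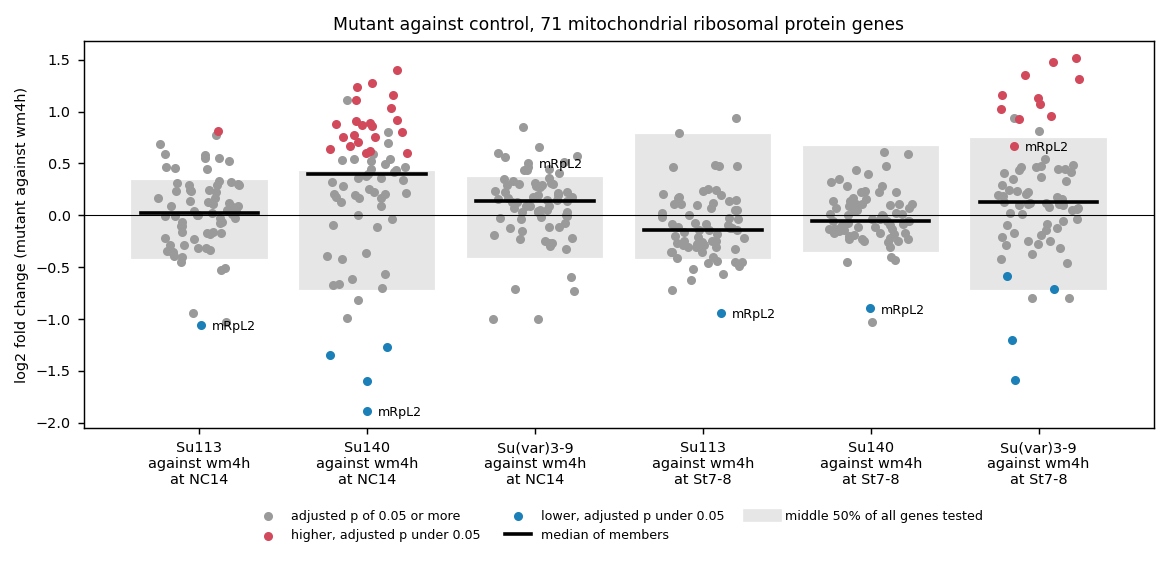
Log2 fold change of each of 71 members in each mutant against wm4h at the same stage. Points are members, red or blue where the adjusted p was under 0.05, black bars are medians of members, and grey boxes hold the middle 50% of all genes tested. In Su140 at NC14 the median of members is 0.40, and mRpL2 is the lowest member at -1.88.

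How many members passed in Su140 at NC14 varied with single libraries. Instead of 26, 5 members passed when wm4h replicate 1 was left out, 12 when wm4h replicate 2 was, and 3 when either Su140 replicate was. 3 calls, mRpL2, mRpL48 and mRpS18B, were kept each time. The Su140 pools at NC14 also differed from wm4h in genes that mark developmental progress. The summed level of 10 genes of the gastrulating embryo (twi, sna, hh, wg and others), all detected, was 769 and 730 CPM in Su140 against 1457 and 1296 CPM in wm4h, and 7 of the 10 were lower by the same test. That of the cellularizing list was 6191 and 5878 CPM against 3988 and 4762 CPM. That of 4 maternal germ plasm genes was 971 and 1168 CPM against 568 and 622 CPM. With the mean log2 CPM of the gastrulating list as a covariate, 0 members were higher and 2 lower, and the median over members was 0.20. The covariate leaves fewer degrees of freedom and moves with the group, so the parts of genotype and developmental age in the result cannot be told apart.

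mRpL2 was the member with calls in the most mutant comparisons, 5 of 6. At NC14 it was 19.8 and 17.0 CPM in wm4h, 8.80 and 8.93 CPM in Su113, 5.38 and 4.59 CPM in Su140, and 25.0 and 27.2 CPM in the Su(var)3-9 mutant. At St7-8 it was 20.8 and 19.1 CPM in wm4h, 10.6 and 10.2 CPM in Su113, 11.1 and 10.4 CPM in Su140, and 30.9 and 32.6 CPM in the Su(var)3-9 mutant. At each stage all Jasper mutant libraries lay below, and both Su(var)3-9 mutant libraries above, the control pair.

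The log2 fold changes of mRpL2 against wm4h were -1.05 ± 0.17 in Su113 at NC14 (adjusted p = 0.0161), -1.88 ± 0.18 in Su140 at NC14 (adjusted p = 0.000265), -0.94 ± 0.17 in Su113 at St7-8 (adjusted p = 0.0163) and -0.90 ± 0.17 in Su140 at St7-8 (adjusted p = 0.0328). Comparisons at the same stage share their control libraries. In the Su(var)3-9 mutant the change was 0.67 ± 0.17 at St7-8 (adjusted p = 0.0144) and 0.51 ± 0.17 at NC14 (adjusted p = 0.222). The call in Su140 at NC14 held under all 13 alternative fits run for it. The call in Su113 at NC14 was lost in 3 of 13, that in Su113 at St7-8 in 8, that in Su140 at St7-8 in 10 and that in the Su(var)3-9 mutant in 6, in each case with the direction kept. From NC14 to St7-8 mRpL2 rose in Su140 (1.10 ± 0.17, adjusted p = 0.00251).

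mRpL2 lies on 3L from 11120847 to 11122041 on the plus strand (dm6), on the other arm of the chromosome that carries Jasper and Su(var)3-9. Its end overlaps the end of Ufd1, on the minus strand from 11121966 to 11123216, over 7.31% of mRpL2 exon bases. Ufd1 encodes a cofactor of the ubiquitin-dependent segregase TER94. In Su140 at NC14 Ufd1 moved the opposite way from mRpL2, from 12.4 and 10.0 CPM in wm4h to 42.1 and 43.9 CPM (1.94 ± 0.21, adjusted p = 0.000599). In Su113 at NC14, where mRpL2 also fell, the change of Ufd1 was -0.44 (adjusted p = 0.351), and in Su140 at St7-8 it was 0.65 (adjusted p = 0.129). In the Su(var)3-9 mutant at St7-8 both rose, Ufd1 by 0.67 (adjusted p = 0.0302). Of 23 other tested genes within 50000 bases of mRpL2, 0 passed in Su113 at NC14. In Su140 at NC14, where 9.56% of all genes passed, emei and Ufd1 were higher and CG14143 and lncRNA:CR43989 lower. At St7-8 Mocs1 and Alg10 were higher in Su113 (2.85% of all genes passed), and Adck5 and lncRNA:CR43989 were lower in Su140 (1.15%). Ufd1 was the only one of the 23 higher in the Su(var)3-9 mutant at St7-8, and 6 were lower (24.8% of all genes passed).

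**Figure D3:**
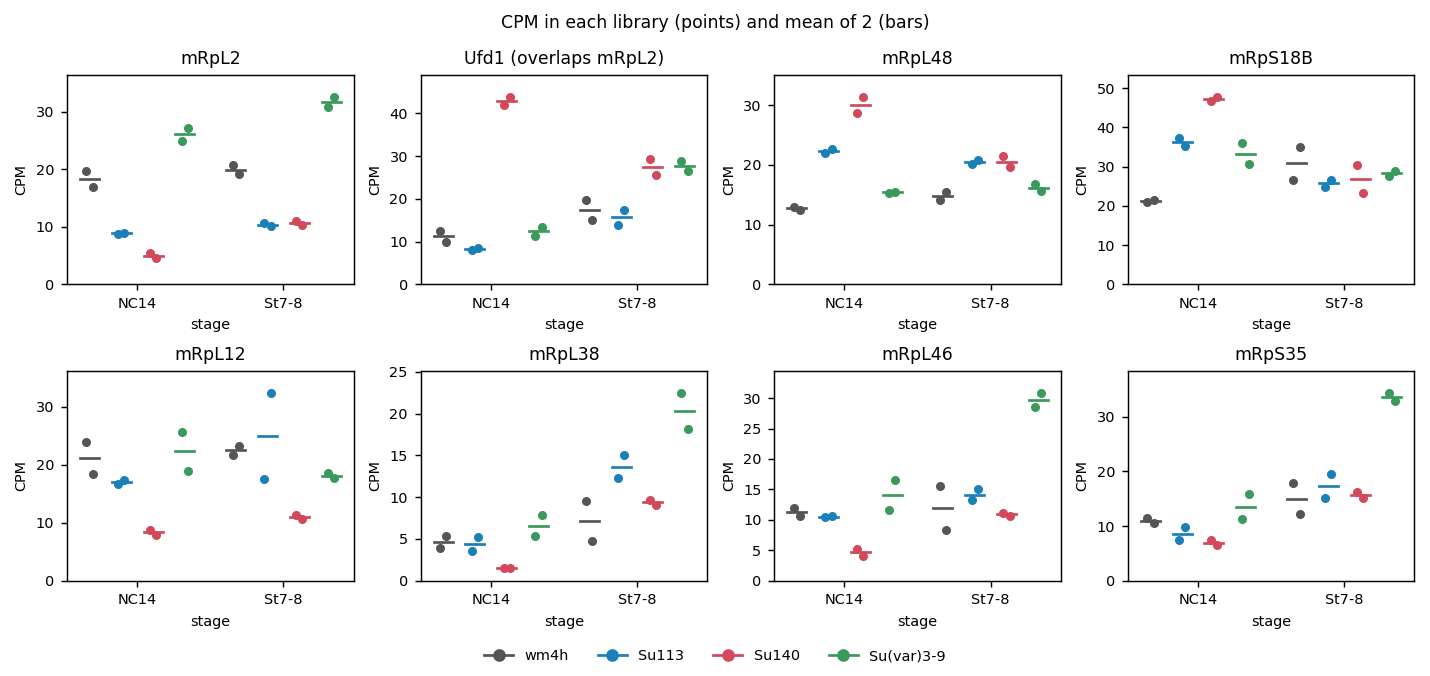
CPM in each library (points) and mean of 2 (bars) for 7 members and for Ufd1, which overlaps mRpL2, by stage and genotype. mRpL2 is low in both Jasper mutants at both stages, while Ufd1 reaches 42.1 and 43.9 CPM in Su140 at NC14.

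Few members passed in the remaining Jasper comparisons. In Su113 at NC14, where 0.936% of all genes were called (0.379% higher and 0.557% lower), mRpL48 was the only member higher and mRpL2 the only one lower. mRpL48 stood at 22.0 and 22.6 CPM in Su113 (0.81 ± 0.15, adjusted p = 0.0352), between wm4h and Su140. With 1 library left out, 0 members passed without wm4h replicate 1 or either Su113 replicate, and 3 were lower without wm4h replicate 2. mRpS18B was 37.3 and 35.2 CPM there, above the control pair, but did not pass (0.78 ± 0.18, adjusted p = 0.0781). The median over members was 0.02, and with total-count scaling 2 members were higher and 1 lower.

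At St7-8 mRpL2 was the only member called in Su113, where 2.85% of all genes passed (1.85% higher and 1.0% lower), and in Su140, where 1.15% did (0.379% higher and 0.774% lower). The medians over members were -0.14 and -0.05, close to those of all genes (-0.09 and -0.05). The gastrulating list stood at 990.5 and 470 CPM in Su113, 1262 and 1154 CPM in Su140, and 1381 and 954 CPM in wm4h. mRpL48 was again above the control pair (14.1 and 15.4 CPM) in Su113 (20.2 and 20.9 CPM) and in Su140 (21.5 and 19.7 CPM), without passing (adjusted p = 0.109 and 0.145). With total-count scaling 1 member was higher and 0 lower in Su113, and 0 passed in Su140. Without wm4h replicate 2, which had the high cellularizing level, 0 members passed in either mutant. In that fit mRpL2 changed by -1.01 in the first and by -0.96 in the second (adjusted p = 0.0992 and 0.15, respectively). The count was also 0 in Su113 without Su113 replicate 2, and in Su140 without any 1 of the 4 libraries.

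The Jasper alleles differed from each other in 4 members at NC14, 2 each way, where 3.08% of all genes passed (2.36% higher in Su113 and 0.726% lower). mRpL2 was higher in Su113 than in Su140 (0.83 ± 0.17, adjusted p = 0.0318), and so was mRpL38 (3.61 and 5.22 CPM against 1.58 and 1.48 CPM, 1.53 ± 0.36, adjusted p = 0.0445). mRpL20 was lower in Su113 (5.14 and 4.91 CPM against 16.1 and 15.1 CPM, -1.63 ± 0.33, adjusted p = 0.0299). mRpL45, whose mammalian counterpart anchors the ribosome to the inner membrane, was also lower (33.7 and 31.2 CPM against 52.9 and 53.4 CPM, -0.71 ± 0.17, adjusted p = 0.0438). None of these calls was kept with any single library of the 4 left out. At St7-8, where 2.4% of all genes passed (1.85% higher in Su113 and 0.548% lower), mRpL12 was the only member called (17.6 and 32.3 CPM in Su113 against 11.4 and 10.6 CPM in Su140, 1.18 ± 0.27, adjusted p = 0.0419). Its Su113 replicates differed by 1.84-fold, the widest gap among members in that group, and 0 members passed without Su113 replicate 2 or either Su140 replicate.

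In the Su(var)3-9 mutant at NC14, 0 members passed by edgeR, and 0.331% of all genes did. There 11 of 71 members had an unadjusted p under 0.05, as did 1790 of all 12398 genes. DESeq2 called 5 members higher and 1 lower. The median over members was 0.14 against 0.00 over all genes. The smallest adjusted p was that of mRpL24, at 43.4 and 24.1 CPM in wm4h and 16.9 and 16.9 CPM in the mutant (-1.0 ± 0.27, adjusted p = 0.142), where the control pair was itself far apart.

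At St7-8, 11 members were higher and 4 lower in the Su(var)3-9 mutant. Over all genes 24.8% passed, 8.94% higher and 15.9% lower, against 15.5% and 5.63% of members. The median over members was 0.13 and over all genes 0.04. Higher members included mRpL37, specific to mitochondria, at 22.3 and 14.9 CPM in wm4h and 36.6 and 38.9 CPM in the mutant (1.02 ± 0.22, adjusted p = 0.00594). mRpL43 went from 4.45 and 2.81 CPM to 11.4 and 8.84 CPM (1.48 ± 0.32, adjusted p = 0.00659), and mRpL46 from 15.5 and 8.31 CPM to 28.6 and 30.8 CPM (1.32 ± 0.29, adjusted p = 0.00682). In each the mutant pair lay above both controls, of which replicate 2 was the lower. By class, 7 of 26 members specific to mitochondria and 4 of 45 homologues of bacterial proteins were higher, and 2 of each were lower. mRpS14, which was also higher (0.93 ± 0.22, adjusted p = 0.00978), overlaps Naa15-16 on the opposite strand over 32.0% of its exon bases, and Naa15-16 rose as well (0.94, adjusted p = 0.0101).

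The 4 lower members at St7-8 included mRpS23, specific to mitochondria, at 10.5 and 18.2 CPM in wm4h and 5.0 and 4.57 CPM in the Su(var)3-9 mutant (-1.58 ± 0.34, adjusted p = 0.00627). mRpL24 went from 18.8 and 28.2 CPM to 10.3 and 10.2 CPM (-1.20 ± 0.27, adjusted p = 0.0083), and mRpS30 from 87.3 and 135 CPM to 70.95 and 64.5 CPM (-0.71 ± 0.22, adjusted p = 0.0311). The fourth was mRpL28 (-0.58 ± 0.18, adjusted p = 0.0339). In these genes wm4h replicate 2 was the higher control. Without that library 0 members passed, with mRpL37 at 0.76 (adjusted p = 0.0724), mRpL46 at 0.93 (adjusted p = 0.0721) and mRpS23 at -1.14 (adjusted p = 0.0826). The count was 20 without wm4h replicate 1, 3 without mutant replicate 1 and 5 without mutant replicate 2. Marker lists differed here too. In the cellularizing list, given above, all 4 genes tested were lower. The maternal germ plasm list was at 300 and 289 CPM in the mutant against 521 and 751 CPM in wm4h, with 3 of 4 genes lower. The gastrulating list was at 1813 and 2076 CPM against 1381 and 954 CPM, with 2 of 10 genes higher. With the gastrulating score as covariate 1 member passed.

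5 of 71 members, and 293 of all 12398 genes tested, were called in opposite directions in Su140 at NC14 and in the Su(var)3-9 mutant at St7-8. These comparisons share no library. mRpL2, mRpL38 and mRpL46 were lower in the first and higher in the second. mRpL28 and mRpS30 were higher in the first and lower in the second. Across the 71 members the rank correlation of the 2 sets of log2 fold changes was -0.41, and across all 12398 genes it was -0.23. The signs alone were opposite in 36 of 71 members (50.7%) and in 59.8% of all genes, and 33 members were higher in both. The gastrulating list was lower than the control in the first comparison and higher in the second, and its part in this pattern was not tested.

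**Figure D4:**
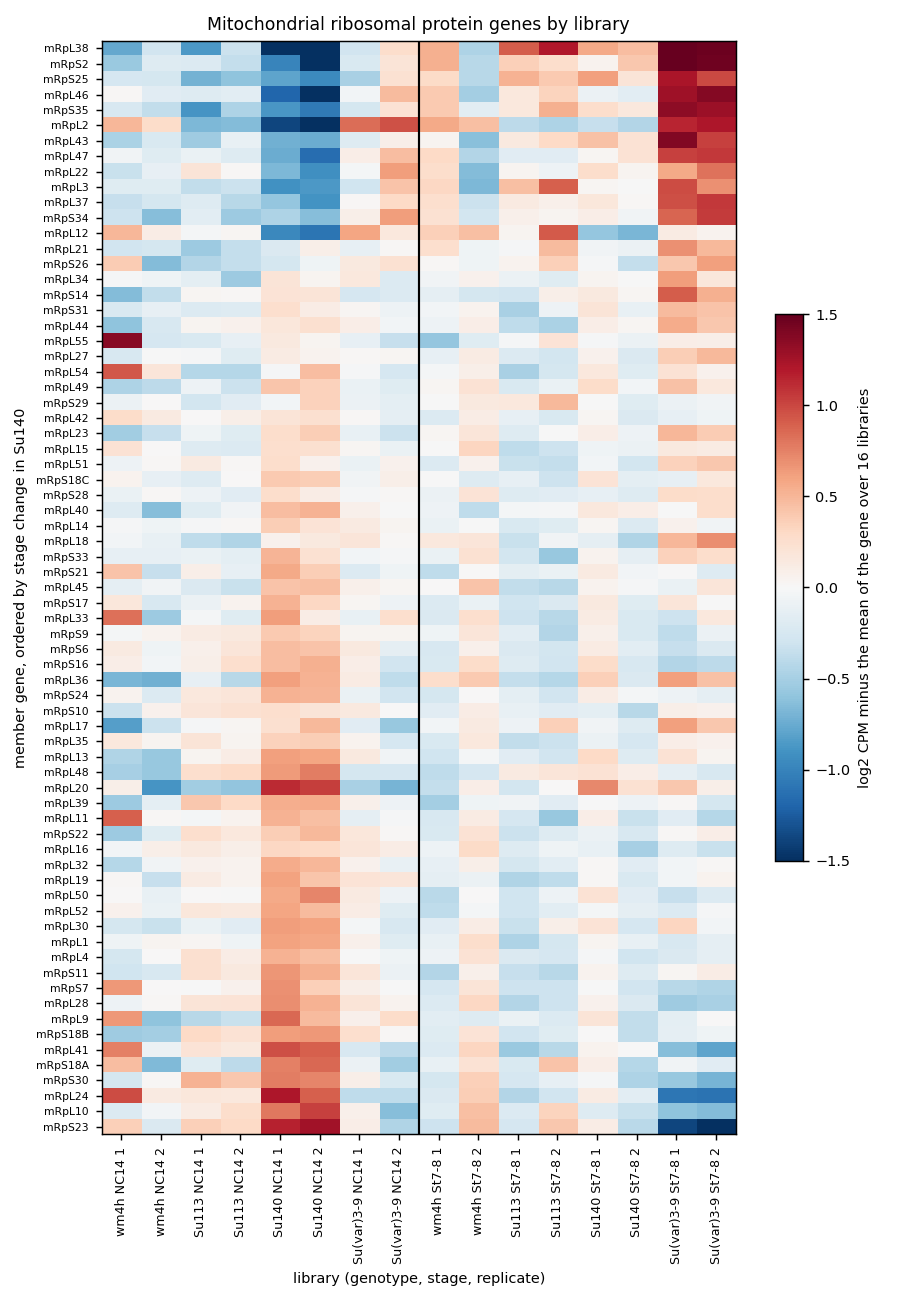
Log2 CPM of each of 71 members (rows) minus its own mean over 16 libraries (columns), red above and blue below the mean, with the colour scale ending at -1.5 and 1.5 and rows ordered by the stage change in Su140. The Su140 pair at NC14 is red in most rows and blue in rows such as mRpL38, mRpL46 and mRpL2, where the Su(var)3-9 pair at St7-8 is red.

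Between the stages, members passed in each mutant and 0 passed in the control, whose St7-8 replicate 2 had the high cellularizing level. That contrast is not itself a test, and the direct tests of it, given below, called 0 members by edgeR. In wm4h, from NC14 to St7-8, 0 of 71 members passed, as did 0.0% of all genes. An unadjusted p under 0.05 was found in 7 members and in 1395 of all 12398 genes, and DESeq2 called 3 members higher. The smallest adjusted p was that of mRpL36, at 4.51 and 4.39 CPM at NC14 and 8.70 and 9.56 CPM at St7-8 (1.04 ± 0.27, adjusted p = 0.324). In Su113 5 members were higher and 3 lower at St7-8 (of all genes 21.8% were called, 12.1% higher and 9.67% lower). In Su140 10 were higher and 22 lower (33.6%, 17.6% higher and 16% lower). In the Su(var)3-9 mutant 10 were higher and 2 lower (22.9%, 10.0% higher and 12.8% lower). Medians over members were -0.13, -0.43 and 0.10, against -0.03, 0.07 and 0.05 over all genes. Markers in Su113 did not all follow the stage labels. The cellularizing list fell from 6736 and 5409 CPM to 2219 and 1258 CPM. The gastrulating list was at 1017 and 1051 CPM at NC14 and at 990.5 and 470 CPM at St7-8, the latter the lowest of 16 libraries. The maternal germ plasm list went from 700 and 724 CPM to 726 and 1230 CPM. The part of this in the stage change of Su113 was not tested.

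The fall in Su140 covered many abundant members. There 31.0% of members were lower, against the share of all genes given above. mRpS30 went from 178 and 174 CPM at NC14 to 103 and 76.1 CPM at St7-8 (-0.98 ± 0.22, adjusted p = 0.0104). mRpS18B went from 46.7 and 47.8 CPM to 30.6 and 23.4 CPM (-0.81 ± 0.18, adjusted p = 0.0108). mRpL10, homologous to the bacterial protein that holds the stalk, went from 47.2 and 55.3 CPM to 23.9 and 21.6 CPM (-1.17 ± 0.27, adjusted p = 0.0122). In these genes the groups did not overlap. This comparison and that of Su140 with wm4h at NC14 share the Su140 libraries of NC14.

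The number of lower members depended on scaling. Total-count scaling moved the all-gene median of the stage change in Su140 from 0.07 to 0.32 and that in Su113 from -0.03 to 0.32. With it 11 members were higher and 5 lower in Su140, and 11 higher and 0 lower in Su113. With the scaling of DESeq2 (relative log expression, RLE) the counts were 11 higher and 13 lower in Su140, and 6 higher and 0 lower in Su113. Leaving out 1 library brought the Su140 count to 3 without NC14 replicate 1, 2 without NC14 replicate 2, 10 without St7-8 replicate 1 and 5 without St7-8 replicate 2. That in Su113 came to 7 without St7-8 replicate 1 and to 0 without any other. With the gastrulating score as covariate 0 members passed in Su140 and 4 higher and 9 lower in Su113.

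From NC14 to St7-8, mRpL38, mRpS35 and mRpS25 rose in all 3 mutants and mRpL28 fell in all 3. mRpL38 and mRpS35 passed in each also with total-count and RLE scaling, whereas mRpL28 in Su113 changed by -0.57 ± 0.18 (adjusted p = 0.0431) and by -0.22 (adjusted p = 0.328) with total-count scaling. mRpL38 was 1.58 and 1.48 CPM at NC14 in Su140 and 9.70 and 9.07 CPM at St7-8 (2.62 ± 0.37, adjusted p = 0.0018). In Su113 it went from 3.61 and 5.22 CPM to 12.3 and 15.0 CPM (1.63 ± 0.36, adjusted p = 0.0132), and in the Su(var)3-9 mutant from 5.38 and 7.85 CPM to 22.4 and 18.2 CPM (1.62 ± 0.35, adjusted p = 0.00796). In wm4h it was 3.86 and 5.39 CPM at NC14 and 9.49 and 4.75 CPM at St7-8, so the control groups overlapped. mRpL38 and mRpL2 were the only calls of the Su140 stage change kept with each library left out.

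mRpS35, a small-subunit protein specific to mitochondria, had the smallest adjusted p in the Su(var)3-9 mutant, going from 11.3 and 15.8 CPM to 34.3 and 32.9 CPM (1.31 ± 0.25, adjusted p = 0.00458). Its rise was 1.18 ± 0.25 in Su140 (adjusted p = 0.00937) and 1.01 ± 0.25 in Su113 (adjusted p = 0.0208). mRpS25 was among the least abundant members, at 2.17 and 1.94 CPM in Su140 at NC14 and 5.79 and 4.31 CPM at St7-8 (1.30 ± 0.35, adjusted p = 0.0194). mRpS14 also rose in the Su(var)3-9 mutant (0.96 ± 0.22, adjusted p = 0.00903), and mRpS23 fell there from 14.0 and 9.54 CPM to 5.0 and 4.57 CPM (-1.30 ± 0.33, adjusted p = 0.0169). In Su113 the members that fell beside mRpL28 were mRpS11 (-0.58 ± 0.18, adjusted p = 0.044) and mRpL19 (-0.51 ± 0.17, adjusted p = 0.0472). Without NC14 replicate 1, 0 of the 12 calls in the Su(var)3-9 mutant were kept, and the counts without the others were 8 (NC14 replicate 2), 1 (St7-8 replicate 1) and 4 (St7-8 replicate 2). With the gastrulating score as covariate 3 members passed in that mutant.

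**Figure D5:**
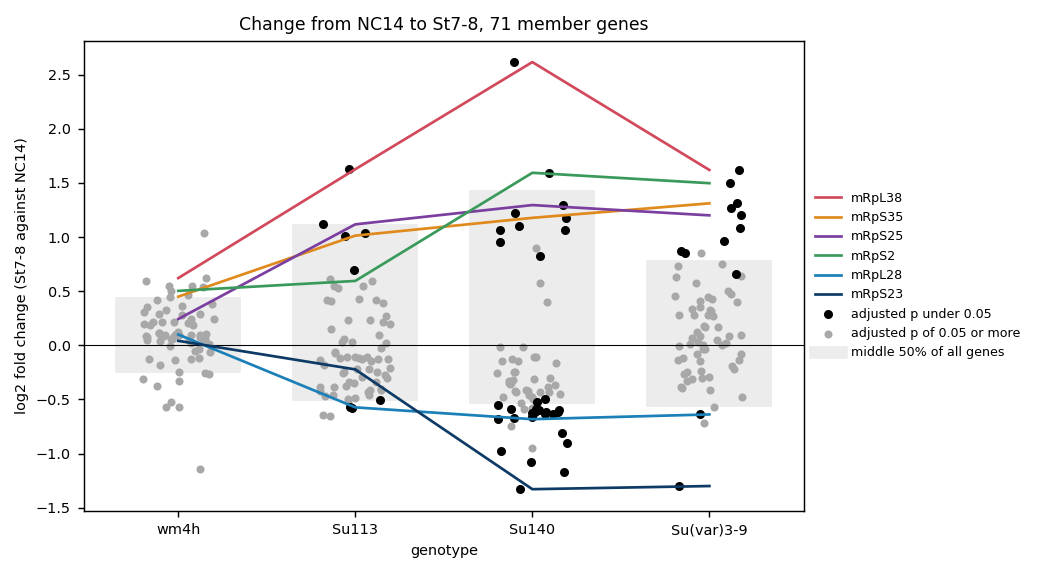
Log2 fold change from NC14 to St7-8 of 71 members in each genotype, black where the adjusted p was under 0.05 and grey otherwise, with boxes for the middle 50% of all genes and lines for 6 named members. Lines for mRpL38, mRpS35, mRpS25 and mRpS2 lie above 0 in all 4 genotypes, and in Su140 mRpL38 reaches 2.62.

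Within each mutant the stage change was more positive in members of low level than in abundant ones. The rank correlation across the 71 members between the level in wm4h at NC14, in CPM per kb, and the stage change was -0.72 in Su113, -0.61 in Su140 and -0.75 in the Su(var)3-9 mutant. No library enters both measures of these correlations, but both share each gene's sequence and annotation. The same correlations were not computed over all genes, so whether the relation is particular to the members was not tested. The sign of the change was positive in all 4 genotypes for 10 members (mRpL2, mRpL3, mRpL37, mRpL38, mRpL43, mRpL46, mRpS2, mRpS25, mRpS34 and mRpS35). It was negative in all 4 for 10 others (mRpL11, mRpL14, mRpL24, mRpL33, mRpL41, mRpL42, mRpL50, mRpL52, mRpS6 and mRpS7). Each set is 14.1% of members, against 20.2% and 17.2% of all genes, and with total-count scaling the sets held 26.8% and 4.23% of members (19 and 3) against 29.1% and 9.17% of all genes.

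The change of each mutant effect between the stages was tested directly, and 0 members passed in any of the 3 tests by edgeR. Of all genes 0.0887% passed for Su113, 0.274% for Su140 and 1.84% for the Su(var)3-9 mutant. The members with an unadjusted p under 0.05 numbered 11, 30 and 9 of 71, against 2204, 3392 and 2078 of all 12398 genes. DESeq2 called 3, 21 and 3 members. mRpS18B had the smallest adjusted p in all 3, with changes of -1.04 ± 0.26 (adjusted p = 0.117), -1.35 ± 0.26 (adjusted p = 0.0514) and -0.78 ± 0.26 (adjusted p = 0.155). These tests share the wm4h libraries. Without wm4h replicate 1 of St7-8, 6 members were higher and 17 lower in the test for Su140, and 1 was higher and 4 lower in that for the Su(var)3-9 mutant. Without Su140 replicate 1 of St7-8, 1 member was lower in the test for Su140.

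Of the 3 homologues of bacterial S18, mRpS18B passed in Su140 at NC14, as given above. mRpS18A was 16.6 and 7.58 CPM in wm4h and 20.3 and 21.9 CPM in Su140 (0.80 ± 0.36, adjusted p = 0.17), so its control replicates lay far apart. mRpS18C was 12.2 and 10.7 CPM in wm4h and 15.4 and 15.1 CPM in Su140 (0.42 ± 0.21, adjusted p = 0.219). The difference among the 3 genes was not tested. Neither mRpS18A nor mRpS18C passed in any mutant or stage comparison.

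Other genes of mitochondrial translation were counted in the same comparisons. tko and bonsai encode the homologues of bacterial S12 and S15 under other symbols. tko rose in Su140 at NC14 from 46.9 ± 0.105 to 72.8 ± 3.03 CPM (SD, n = 2; 0.63 ± 0.16 (SE), adjusted p = 0.0289) and fell with stage in Su140 (-0.71 ± 0.16, adjusted p = 0.0101) and in Su113 (-0.51 ± 0.16, adjusted p = 0.0403). bonsai passed in none of the 15 comparisons. In Su140 at NC14 3.02% of all genes were higher and 6.53% lower. The lists that follow are small, so single calls weigh heavily in their shares. There 3 of 15 mitochondrial aminoacyl-tRNA synthetase genes were higher and 1 lower, among them GluRS-m (1.19 ± 0.29, adjusted p = 0.0255) and AlaRS-m (-1.15 ± 0.21, adjusted p = 0.00963). Of 11 mitochondrial translation factors 2 were higher, mIF2, an initiation factor (0.78 ± 0.21, adjusted p = 0.0382), and mRRF1, a ribosome recycling factor (0.72 ± 0.17, adjusted p = 0.0252). Of 12 genes of mitochondrial DNA and RNA maintenance 2 were higher, PolrMT, the mitochondrial RNA polymerase (1.56 ± 0.35, adjusted p = 0.0193), and mTerf3 (1.36 ± 0.25, adjusted p = 0.00921).

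Nuclear genes of the respiratory chain and ATP synthase, of import and of the cytosolic ribosome gave fewer calls for their number in Su140 at NC14 than the lists above. Of all genes 9.56% passed there, a share against which the import list is too short to be read. Of 71 nuclear genes of the respiratory chain and ATP synthase 0 passed, with a median log2 fold change of 0.28, and of 9 import genes 0 passed, with a median of 0.32. Of 85 cytosolic ribosomal protein genes 2 were higher and 1 lower, with a median of 0.20. The median was 0.41 over the 11 translation factors, of which 10 had a positive change, and 0.40 over the mitochondrial ribosomal protein genes. Positive changes were as frequent in respiratory chain genes (54 of 71) as in members (54 of 71). They were found in 68 of 85 cytosolic ribosomal protein genes, 7 of 9 import genes, 10 of 15 synthetase genes and 8 of 12 maintenance genes. A difference between the lists was not tested. With stage in Su140, where 16% of all genes were lower and 17.6% higher, 6 of 11 translation factors were lower and 0 higher, 5 of 12 maintenance genes were lower and 1 higher, and 7 of 71 respiratory chain genes were lower and 1 higher. In the Su(var)3-9 mutant at St7-8, where 8.94% of all genes were higher and 15.9% lower, 5 of 12 maintenance genes were higher and 2 lower, the latter PolrMT (-1.88 ± 0.35, adjusted p = 0.00332) and PolG1, the mitochondrial DNA polymerase (-1.19 ± 0.24, adjusted p = 0.00451). All 38 rows for genes of the mitochondrial genome had a count of 0 in every library, so the RNAs that the mitochondrial ribosome contains and translates were not measured.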

How the data were processed

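RNA-seq libraries were prepared from total RNA with a stranded kit, per the labels' protocols. The authors deposited 1 table of whole-number counts per gene, without normalization. The submitters' processing notes name the genome dm6 and DESeq2. The aligner, the counting tool with its strand setting, and the annotation are not given in the sources used here. Symbols, exon lengths and coordinates came from Ensembl release 115, which held 17626 of the 17753 identifiers. It held 73 genes of the symbol pattern, and 1 was not analysed here.

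Counts were tested with edgeR 4.0.16 in R 4.3.3 (limma 3.58.1). The default filter on low counts removed 5355 genes, and TMM scaling and 1 mean for each of 8 groups were fitted over 16 libraries (8 residual degrees of freedom). The quasi-likelihood test was two-sided, with Benjamini-Hochberg adjustment over 12398 genes and a threshold of 0.05. The standard error (SE) is the log2 fold change divided by the root of its F statistic. CPM is counts per 1000000 after TMM, and per kb divides it by the union of exon bases. The floor of 3 counts was 0.0299 to 0.0573 CPM, which covers counting error alone, because these reads carry no molecular identifiers. The procedure was run on simulated counts with 1 spread for all genes, smaller than the common spread fitted to these data. That setting was easier than the data, so it does not measure how well changes were found here. DESeq2 1.42.0 and other scalings, filters and fits were run as alternatives. Figures were drawn with matplotlib 3.10.9, and tables were made in python 3.11.15 with scipy 1.17.1, numpy 2.4.6 and pandas 2.3.3.

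Members, gene lists and comparisons were chosen with earlier results of these data known. Named members are, per comparison, up to 3 each way by smallest adjusted p or, with no call, the 1 with the smallest. To these come members called in 2 or more mutant comparisons or between alleles, the extremes of level and spread, the S18 homologues, tko and bonsai, and up to 2 genes of each other list. The classes by evolutionary origin, mRpL28, mRpL4, mRpL20 and mRpL55 where given as extremes, and the genes near mRpL2, were chosen after values were seen.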

Additional observations from a re-analysis of the deposited data

Results flagged for a closer look

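5 differences between the Jasper alleles passed the direct test of Su113 against Su140 (edgeR, adjusted p under 0.05). At NC14 the log2 difference was 1.53 for mRpL38, 0.83 for mRpL2, -1.63 for mRpL20 and -0.71 for mRpL45. At St7-8 it was 1.18 for mRpL12. With replicates of 2, no group was large enough to look for single outlying samples.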

How the results depend on the processing

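Replicate numbers did not pair the samples: over 28 pairs of groups, the correlation of same-numbered deviations ran from -0.50 to 0.33. A fit with the replicate number as a block gave 1 member past the threshold in Su113 at NC14 (2 without it), 0 in Su140 at St7-8 (1), 2 in the stage change of Su113 (8), 2 between the alleles at NC14 (4) and 0 at St7-8 (1). With the block, the other 10 counts were within 1.5 times, 19 in Su140 at NC14 among them.

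Each named result was set against each alternative fit run for it. Of these pairs of result and alternative, 413 kept their side of the threshold, 221 lost it, 12 gained it and 0 reversed. The call of mRpL2 in Su140 at NC14 was the only call of a member kept under all alternatives. With 1 library left out, counts of members ran from 0 to 3 in Su113 at NC14, 3 to 12 in Su140 at NC14, 0 to 2 in the Su(var)3-9 mutant at NC14, 0 to 1 in Su113 at St7-8, 0 to 0 in Su140 at St7-8 and 0 to 20 in the Su(var)3-9 mutant at St7-8. For the stage change they ran from 0 to 1 in wm4h, 0 to 7 in Su113, 2 to 10 in Su140 and 0 to 8 in the Su(var)3-9 mutant. Between the alleles they were 0 to 0 at NC14 and 0 to 1 at St7-8, and for the change of effect 0 to 0 in Su113, 0 to 23 in Su140 and 0 to 5 in the Su(var)3-9 mutant. With 1 library left in a group, it is assumed to vary like the others.

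DESeq2 called 8 members in Su113 and 6 in the Su(var)3-9 mutant at NC14, and 4 in Su113, 3 in Su140 and 26 in the Su(var)3-9 mutant at St7-8. For the stage change it called 3 in wm4h, 13 in Su113 and 25 in the Su(var)3-9 mutant, between the alleles 28 at NC14 and 2 at St7-8, and for the change of effect 3, 21 and 3. Total-count scaling gave 0 in Su140 at St7-8, and 16 (Su140) and 22 (Su(var)3-9 mutant) for the stage change. RLE scaling gave 2 in Su113 and 0 in Su140 at St7-8, and 1 for the change of the Su140 effect. Without the filter on low counts the counts were 1 in Su113 at NC14, 0 in Su113 and in Su140 at St7-8, 4 (Su113) and 17 (Su140) for the stage change, 2 between the alleles at NC14 and 1 for the change of the Su140 effect. A filter of 1 CPM in 4 libraries gave 2 in Su113 and 2 in Su140 at St7-8, 19 for the stage change in the Su(var)3-9 mutant, 8 between the alleles at NC14 and 4 for the change of the Su140 effect. The gastrulating score as covariate gave 2 in Su140 at NC14, 0 in Su113 and 1 in the Su(var)3-9 mutant at St7-8, 13, 0 and 3 for the stage change in Su113, Su140 and the Su(var)3-9 mutant, and 0 between the alleles at either stage. Without the second St7-8 library of every genotype the counts were 0 in each mutant at St7-8, 2 (Su113) and 12 (Su140) for the stage change, and 10 and 0 between the alleles at NC14 and St7-8. Fits to 1 stage or genotype alone gave 0, 0 and 4 in Su113, Su140 and the Su(var)3-9 mutant at St7-8, 1 for the stage change in Su113, and 12 and 0 between the alleles. The cause of these shifts was not tested.

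Only 2 pools per group limit these comparisons, and the parts of depth and of spread between pools were not separated. The SD of the log2 replicate difference over all genes, low counts included, was 0.57 to 0.85 at NC14 and 0.92 to 1.55 at St7-8. CPM and CPM per kb ranked the members with a Spearman rho of 0.893. Promoter motif counts, planned with a second window length, were not run, since no promoter sequences were used here.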
